A study of Mus musculus with 16 samples.

Results

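INO80 is a chromatin remodelling complex, and the 10 genes described here encode subunits of it: Ino80, Ino80b, Ino80c, Ino80d, Ino80e, Actr5, Actr8, Ruvbl1, Ruvbl2 and Nfrkb. They were chosen by name, not by their values, from the 46983 genes of a count table. The table came from 46C mouse embryonic stem cells (ESCs), a line from strain 129Ola with GFP at the Sox1 locus, kept in medium with LIF. Cells were transfected for 48 hr with an siRNA against RAM, the activating subunit of the mRNA cap methyltransferase RNMT and the product of the Ramac gene, or with a non-targeting control siRNA. All cells were treated with cycloheximide before lysis, 10% of each extract was kept as input, and RNA of gradient fractions 17 to 22 was pooled as polysomes. This gave 4 groups of 4 libraries: input and polysomes of control cells, and input and polysomes of RAM siRNA cells. All 10 genes were among the 12805 genes with enough counts to be tested. The study itself named INO80 genes from these libraries, so the direction of the list in these samples is not independent evidence, and a single cell line with a single siRNA condition limits what it stands for.

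INO80 uses the energy of ATP to slide nucleosomes and to remodel those that carry the histone variant H2A.Z. It works at promoters and enhancers, at replication forks and at broken DNA, and in ESCs it is known for keeping chromatin open at pluripotency genes. Ino80 encodes the motor ATPase and scaffold. Ruvbl1 and Ruvbl2 encode AAA+ ATPases that form a ring on it and that also serve other complexes, among them the remodeller SRCAP, the acetyltransferase TIP60 and the R2TP chaperone. Actr5 and Actr8 encode actin-related proteins, and Ino80b, Ino80c, Ino80d, Ino80e and Nfrkb encode accessory subunits. Nfrkb recruits the deubiquitinase Uchl5 to the complex.

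Libraries held between 16647523 and 20147833 counts. Ramac had 197 to 206 counts in control input and 46 to 58 after RAM siRNA (log2 fold change -1.84 ± 0.11 SE, adjusted p = 7.24e-06). In polysomes it had 122 to 256 and 5 to 45 counts (-2.52 ± 0.55, adjusted p = 0.128, and 2.36e-05 with the replicate number as a block). All 10 ESC markers examined passed the count filter, and their summed level was 4280 to 4660 CPM (counts scaled to library size by TMM) in control input and 3790 to 4290 after RAM siRNA. Of the markers of other cell types, 5 of 8 neural, 1 of 5 trophoblast, 3 of 6 endoderm and 2 of 6 mesoderm or fibroblast genes passed the filter, with summed levels of at most 103 CPM in any library. In bulk libraries like these, fewer cells that carry an mRNA and less of it per cell cannot be told apart.

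The main division among the INO80 mRNAs is how they split between input and polysomes, so the stretch of mRNA around each start codon is shown for the members at both ends of that division. Each line gives 10 bases before the start codon, the start codon in capitals, and the 4 bases after it, from the GENCODE M21 coding transcript with the longest coding sequence (GRCm38). The members low in polysomes come before those high in polysomes. Ino80c, which was also lower in polysomes of control cells at an adjusted p under 0.05, is not shown.
Ino80d: gagtcacgtgATGtatg
Nfrkb: agaagaagcaATGgatt
Ino80: aatttgttctATGgcct
Actr8: ggtggcagagATGaccc
Ruvbl2: ggtgtgcatcATGgcaa
Ino80b: cggaaaaggcATGtcgg
Ruvbl1: actcggcaaaATGaaga

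The purine that usually stands 3 bases before a well-used start codon was present in 9 of the 10 members, against 86.4% of 11695 tested genes, and Ino80 was the member with T there. A G directly after the start codon was found in 5 of 10 members, against 53.2% of genes. At least 1 further ATG lay upstream in the 5′ untranslated region of 5 of 10 members (Ino80, Ino80b, Ino80d, Ruvbl2 and Nfrkb), against 50.4% of 11818 genes. Members with these features lay on both sides of the polysome division.

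Levels between genes were compared as CPM per kb of exon. The order depends on the length used: by CPM without length Ino80d stood at rank 1 and Ruvbl1 at rank 5, and per kb of a single coding transcript, a length chosen after seeing the data, Ino80c (36 CPM per kb) and Ino80e (33.7) stood above Ruvbl1 (32.5). Per kb of exon, the ATPases of the ring had the highest levels in control input, with Ruvbl2 at 44.3 ± 3.79 CPM per kb (SD, n = 4) and Ruvbl1 at 28.7 ± 3.04. The motor subunit Ino80 followed at 13 ± 0.774 CPM per kb, and its 4 libraries overlapped those of Ino80c at 11.6 ± 1.16. Ino80e at 8.7 ± 0.513, Ino80b at 8.03 ± 0.943 and Ino80d at 7.66 ± 0.992 CPM per kb overlapped their neighbours in this order. Nfrkb at 3.79 ± 0.107, Actr5 at 3.29 ± 0.4 and Actr8 at 2.97 ± 0.361 CPM per kb were lowest, and the libraries of Actr5 and Actr8 overlapped. The place of Actr8 also depends on the length, as it stood at rank 6 per kb of the single coding transcript (11.5). By CPM without length it stood at rank 8, and Ino80b was last at rank 10. In control polysomes Ruvbl2 at 94.5 ± 5.1 and Ruvbl1 at 64.7 ± 6.86 CPM per kb again led, while Ino80b stood at rank 3 with 17.7 ± 3.68. Ino80d at 1.14 ± 0.35 and Nfrkb at 1.07 ± 0.388 CPM per kb were at the bottom and overlapped. The subunit mRNAs of this complex therefore did not stand at a common level, and their order differed between input and polysomes.

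**Figure D1:**
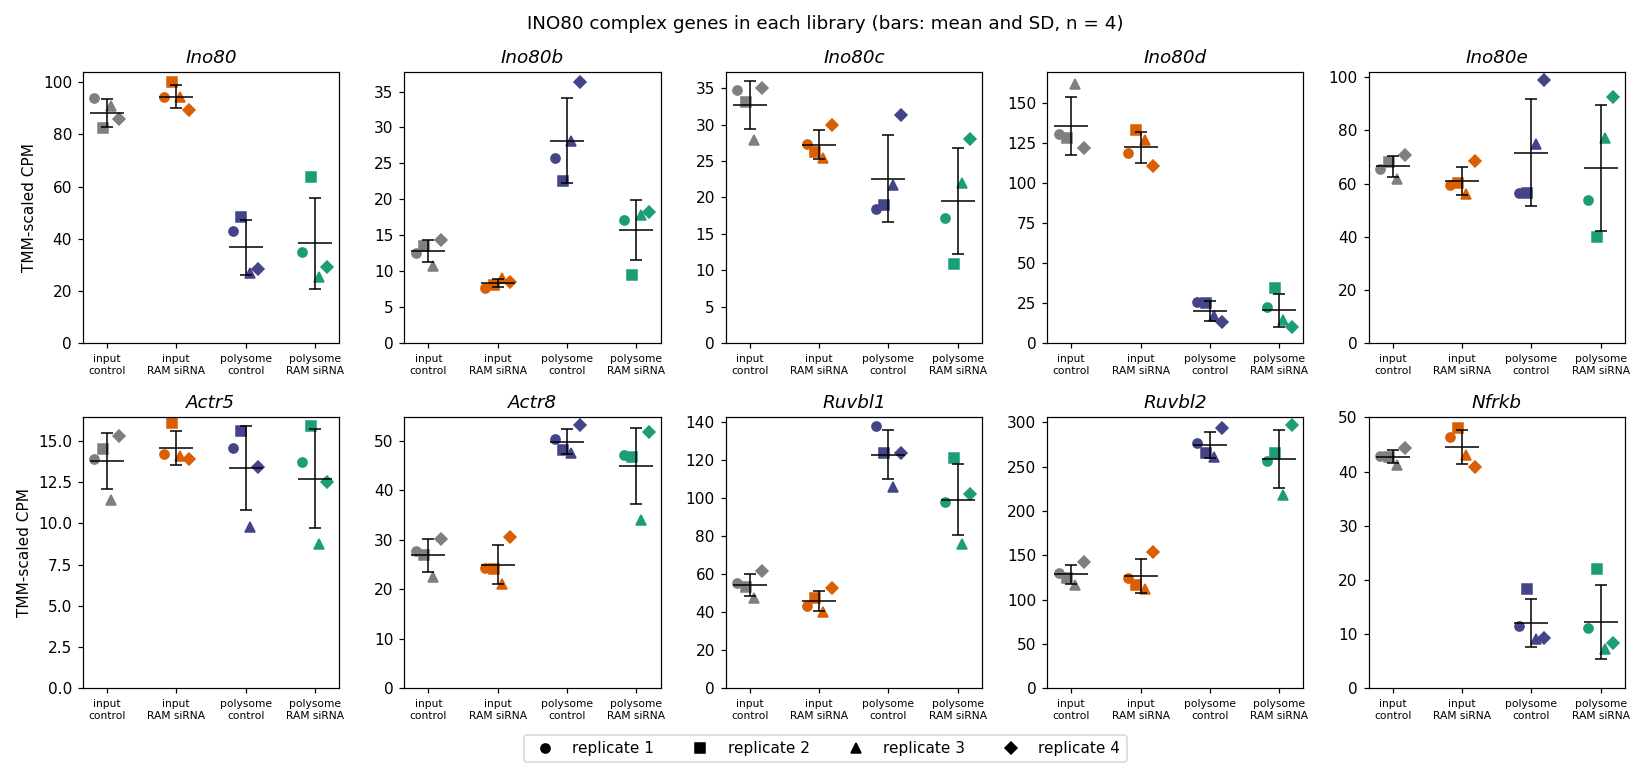
TMM-scaled CPM of the 10 INO80 complex genes (vertical axes, from 0) in the 4 groups (horizontal axes), with a marker shape for each replicate number and bars for the mean and SD of 4 libraries. Ino80b is the only member whose RAM siRNA libraries lie wholly below the control libraries, in input and in polysomes, while Ino80d, Nfrkb and Ino80 drop from input to polysomes and Ruvbl1, Ruvbl2 and Actr8 rise.

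The first comparison asked whether INO80 mRNAs changed in input after RAM siRNA. Ino80b (ENSMUSG00000030034, minus strand of chr6:83121765-83125431 in GRCm38, 5 exons), which encodes an accessory subunit, was the member that fell. Its control input libraries held 12.6, 13.5, 10.8 and 14.3 CPM and its RAM siRNA libraries 7.7, 8.12, 9.12 and 8.6 CPM, in the order of the replicate numbers. The groups did not overlap, and the RAM siRNA mean was 65.5% of control (log2 fold change -0.61 ± 0.11 SE, adjusted p = 0.00434, edgeR quasi-likelihood test). Groups that did not overlap, with RAM siRNA lower, were found for 8.62% of all genes tested in input.

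An adjusted p under 0.05 is called below. Of the 10 members 1 was called lower and 0 higher, where 5.94% of all genes were called lower and 6.95% higher. The other log2 fold changes ran from -0.27 for Ino80c to 0.10 for Ino80. The median over the members was -0.12, with 7 of 10 below 0, and the median of all genes was 0.00. A count of 1 in 10 is close to the share of all genes, so the list as a whole did not stand apart in this fit. The fit leaves out the pairing of libraries by replicate number.

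Libraries with the same replicate number deviated together, and a fit with that number as a block called 5 of the 10 members lower and 0 higher, against 19% and 20.3% of all genes. Besides Ino80b (adjusted p = 4.01e-05) these were Ruvbl1, Ino80c, Ino80e and Ino80d. Ruvbl1, the ring ATPase on the plus strand of chr6:88465409-88497572, held 55.3, 53.5, 47.5 and 61.5 CPM in control input and 43.2, 47.7, 40.1 and 52.7 CPM after RAM siRNA. Its ranges overlapped between the groups, but each RAM siRNA library was below the control library of the same number (-0.25 ± 0.05, adjusted p = 0.000413 with the block and 0.114 without).

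Ino80c, whose product pairs with that of Actr5 in the complex, held 34.7, 33.1, 27.9 and 35 CPM in control input and 27.4, 26.2, 25.4 and 30 CPM after RAM siRNA (-0.26 ± 0.06, adjusted p = 0.00127 with the block and 0.0689 without). It too was lower in 4 of 4 same-numbered pairs. Ino80e fell by 0.13 on the log2 scale (SE 0.05, adjusted p = 0.0307 with the block and 0.307 without) and was lower in 4 of 4 pairs. Ino80d fell by 0.14 (SE 0.05, adjusted p = 0.0334 with the block and 0.352 without) and was lower in 3 of 4 pairs. The share of all genes lower in 4 of 4 pairs was not counted, in input or in polysomes.

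The motor and the remaining subunits did not pass in either fit. Ino80 was at 94, 82.2, 90.9 and 85.7 CPM in control input and at 94.2, 99.9, 94.2 and 89.3 CPM after RAM siRNA, so its groups overlapped (log2 fold change 0.10, 95% interval -0.01 to 0.20 with the block). Ruvbl2 had a log2 fold change of -0.03 with an interval of -0.12 to 0.07, Actr5 0.08 with -0.09 to 0.25, Nfrkb 0.06 with -0.06 to 0.17, and Actr8 -0.11 with -0.23 to 0.02, all with the block. Changes as large as that of Ino80b lie outside all of these intervals.

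Since RUVBL1 and RUVBL2 share a ring, the ratio of their counts within each library was also taken, which needs no scaling between libraries. In control input Ruvbl1 had 0.425, 0.431, 0.406 and 0.431 counts for each count of Ruvbl2, and after RAM siRNA 0.347, 0.41, 0.359 and 0.341. The means were 0.423 ± 0.0116 and 0.364 ± 0.0311 (SD, n = 4), and an exact two-sided permutation test gave p = 0.0571, where 0.0286 is the smallest p that 4 against 4 libraries allow. In polysomes the means were 0.448 ± 0.0412 and 0.383 ± 0.0509 (exact permutation p = 0.114), and both p-values were 0.114 after adjustment for the 2 tests. The ratio was lower after RAM siRNA in 4 of 4 same-numbered pairs in input and in 4 of 4 in polysomes, and an exact paired permutation test gave p = 0.125 for each, the smallest that 4 pairs allow. This ratio was chosen after the values were seen.

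**Figure D2:**
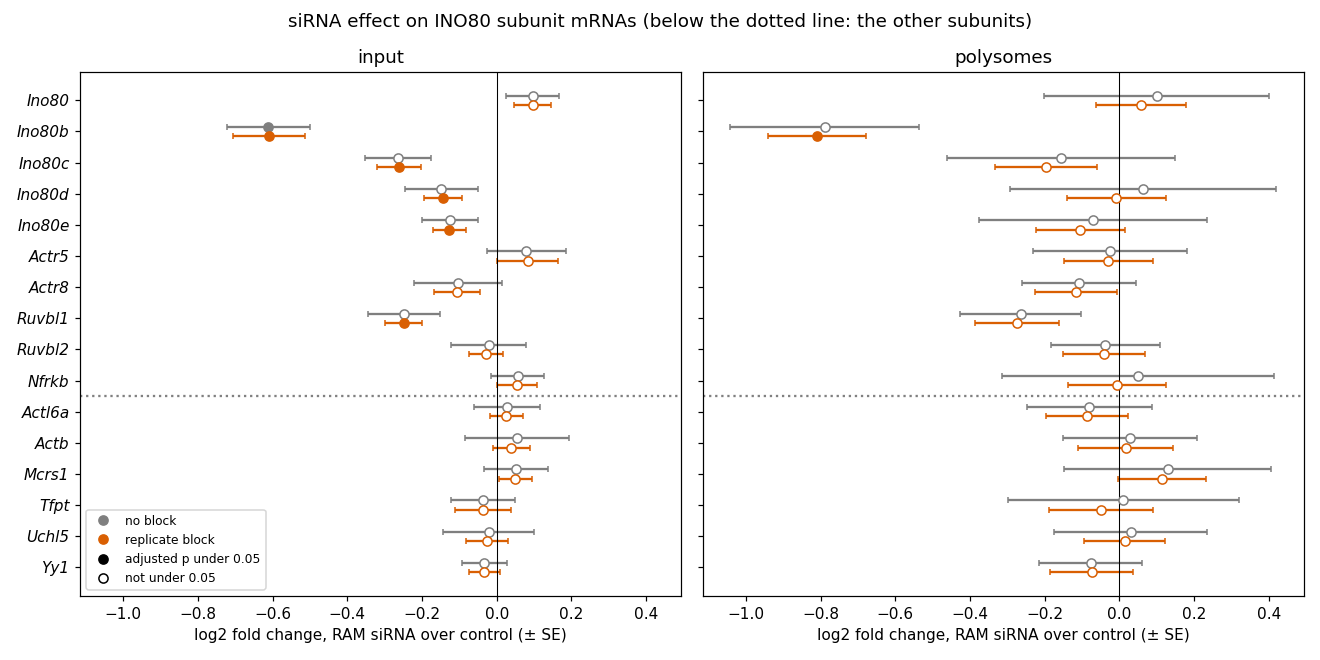
log2 fold change of RAM siRNA over control (horizontal axes, with SE) for the 10 members and, below the dotted line, 6 other INO80 subunits, in input (left) and polysomes (right), without a block (grey) and with the replicate number as a block (orange). Filled points have an adjusted p under 0.05: Ino80b alone without the block in input, 5 members with the block in input, and Ino80b with the block in polysomes.

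The 6 subunits of INO80 outside the list gave no call. They are Actl6a and Actb, which the complex shares with other remodellers, Mcrs1, Tfpt, Uchl5 and the transcription factor Yy1. Their log2 fold changes in input ran from -0.04 for Tfpt to 0.05 for Actb, with a median of 0.00, and 0 of 6 passed with or without the block, at unadjusted p-values of at least 0.281.

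Among 18 further genes of SRCAP and TIP60, the complexes that share the ring, 1 was called lower and 1 higher in input. These were Trrap, a large scaffold of the acetyltransferase (-0.52 ± 0.11, adjusted p = 0.0104), and Morf4l1, a chromodomain subunit (0.40 ± 0.07, adjusted p = 0.00387). With the block 4 were lower (Trrap, Kat5, Znhit1 and Epc2) and 3 higher (Morf4l1, Morf4l2 and Mbtd1). Over all genes 19% were called lower and 20.3% higher with the block, and 5.94% and 6.95% without it. Of 11 partners of the ring in the R2TP and PAQosome chaperones, 0 were called without the block. With it, 2 were lower (Pih1d1 and Wdr92) and 2 higher (Pdrg1 and Telo2). Of the 3 histone genes for H2A.Z and H2A.X, the variants INO80 is known to act on, H2afx was lower with the block (-0.16 ± 0.05, adjusted p = 0.00699) and none passed without it. The medians of these lists lay between -0.05 and 0.03 in both fits.

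Neighbouring genes bear on which reads were counted for some members. Ino80b has Wbp1 on the same strand with 205 bases between them. Wbp1 had a log2 fold change of -0.22 in input, with an adjusted p of 0.116 without the block and 0.00845 with it. Ino80e shares 1103 exon bases with Doc2a and 150 with Hirip3, both on the opposite strand. Hirip3 had -0.20, with an adjusted p of 0.103 without and 0.00469 with the block. Ino80d has the antisense transcript Ino80dos, which had 100 to 116 counts in control input libraries, where Ino80d had 2174 to 2949. Ruvbl2 shares 310 exon bases with the opposite-strand gene Gys1, which had 1174 to 1382 counts there. Further opposite-strand overlaps were 91 exon bases of Ino80b with Gm44287, 141 of Actr8 with Il17rb and 138 of Ruvbl2 with Lhb. The strand setting of the counting is not given in the sources used here, and how far such reads add to the members' counts was not tested.

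The next comparison took the same groups in polysomes. Without a block 0 of 10 members were called and 3 of all genes (0.0234%), with 1 member and 1152 genes at an unadjusted p under 0.05, and DESeq2 also called 0 members, among 300 genes. Ino80b was that member. Its control polysome libraries held 25.8, 22.5, 28.1 and 36.3 CPM and its RAM siRNA libraries 17.2, 9.51, 17.9 and 18.3 CPM, so the groups again did not overlap, as for 4.38% of all genes in this direction. The RAM siRNA mean was 55.8% of control, and the log2 fold change was -0.79 ± 0.25 SE (unadjusted p = 0.0114, adjusted p = 0.348).

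With the block Ino80b passed (-0.81 ± 0.13, adjusted p = 0.00088), alone among the members, where 4.97% of all genes were called lower and 9.68% higher. Ruvbl1 had control values of 138, 124, 106 and 124 CPM and RAM siRNA values of 98.1, 121, 75.8 and 102 CPM, lower in 4 of 4 pairs with overlapping groups (-0.27 ± 0.11, adjusted p = 0.121 with the block). Without the RAM siRNA polysome library of replicate 2, and with the block, Ruvbl1 and Ino80b were both called (-0.36 and -0.69, adjusted p = 0.00109 and 2.23e-05), while the number of genes called rose from 1875 to 4566. The other 8 members had log2 fold changes between -0.20 for Ino80c and 0.06 for Ino80 with the block. None of the 6 other subunits passed, with values between -0.09 and 0.11.

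The third comparison, polysomes against input of cells with the same siRNA, gave the largest differences between members. The fit did not pair the libraries of a culture. In control cells 8 of 10 members were called, 4 lower and 4 higher in polysomes, where 34.3% of all genes were called lower and 33.1% higher. With the replicate block, which pairs the libraries of a culture, the member calls were also 4 lower and 4 higher. Over all 12805 genes tested, that fit called 4764 lower and 4489 higher. The members thus lay on both sides of a division that runs through all genes, and their median of -0.00 was that of all genes.

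Ino80d (minus strand of chr1:62958418-63114667) was the member lowest in polysomes. It held 131, 128, 162 and 122 CPM in control input and 25.6, 25.4, 16.8 and 13.3 CPM in control polysomes, without overlap (-2.78 ± 0.21, adjusted p = 9.46e-07). Its mean polysome over input ratio was 0.152 ± 0.0523 (SD, n = 4). Nfrkb, the subunit that binds Uchl5, held 42.8, 42.7, 41.3 and 44.3 CPM in input and 11.4, 18.4, 9.14 and 9.27 CPM in polysomes (-1.86 ± 0.20, adjusted p = 1.29e-05).

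The motor subunit Ino80 fell from the input values given above to 43.1, 48.4, 27.1 and 28.6 CPM in control polysomes (-1.30 ± 0.18, adjusted p = 6.47e-05). Ino80c was called with a smaller difference and overlapping groups, at 18.4, 19, 21.7 and 31.3 CPM in polysomes (-0.57 ± 0.18, adjusted p = 0.0146). These 4 mRNAs, of the motor and of 3 accessory subunits, had a smaller share of polysome than of input reads.

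The ring ATPases had the opposite split. Ruvbl2 held 130, 124, 117 and 143 CPM in control input and 277, 265, 261 and 294 CPM in polysomes (1.06 ± 0.11, adjusted p = 1.1e-05). Ruvbl1 rose by about the same amount (1.14 ± 0.12, adjusted p = 1.1e-05), and its mean ratio was 2.26 ± 0.2 against 2.14 ± 0.0698 for Ruvbl2. The ratios of the ring pair overlapped, from 2.01 to 2.49 for Ruvbl1 and from 2.06 to 2.23 for Ruvbl2.

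Ino80b, at a ratio of 2.22 ± 0.443, had as large a difference as the ring genes (1.11 ± 0.16, adjusted p = 0.000116). Actr8 rose from 27.8, 26.8, 22.4 and 30.2 CPM to 50.4, 48.1, 47.5 and 53.2 CPM (0.86 ± 0.12, adjusted p = 6.74e-05). Its fellow actin-related subunit Actr5 was not called, with a log2 difference of -0.08 ± 0.16 (95% interval -0.43 to 0.27). Ino80e was not called either (0.08 ± 0.18). Of the 6 other subunits Uchl5 (1.19 ± 0.14), Actl6a (0.95 ± 0.13) and Actb (0.56 ± 0.14) were higher in polysomes and 0 were lower, and with the block Yy1 was also called higher (0.23 ± 0.09, adjusted p = 0.0485).

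The neighbour Wbp1 moved the other way from Ino80b, with a log2 difference of -2.08 ± 0.14 in the control cells. In the partner lists 9 of 18 SRCAP and TIP60 genes were lower and 6 higher in polysomes, among them Trrap (-2.03 ± 0.31), Brd8 (-1.90 ± 0.23), Vps72 (1.02 ± 0.16) and Actr6 (0.70 ± 0.14). With the block Znhit1 was also lower (-0.50 ± 0.17, adjusted p = 0.0298), which made 10 of 18. Of the 11 chaperone partners 3 were lower and 5 higher. Without the block the shares of all genes were 34.3% lower and 33.1% higher. With it, 4764 of all 12805 genes were lower and 4489 higher. H2afv was lower (-1.05 ± 0.16) and H2afx higher (0.93 ± 0.29).

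**Figure D3:**
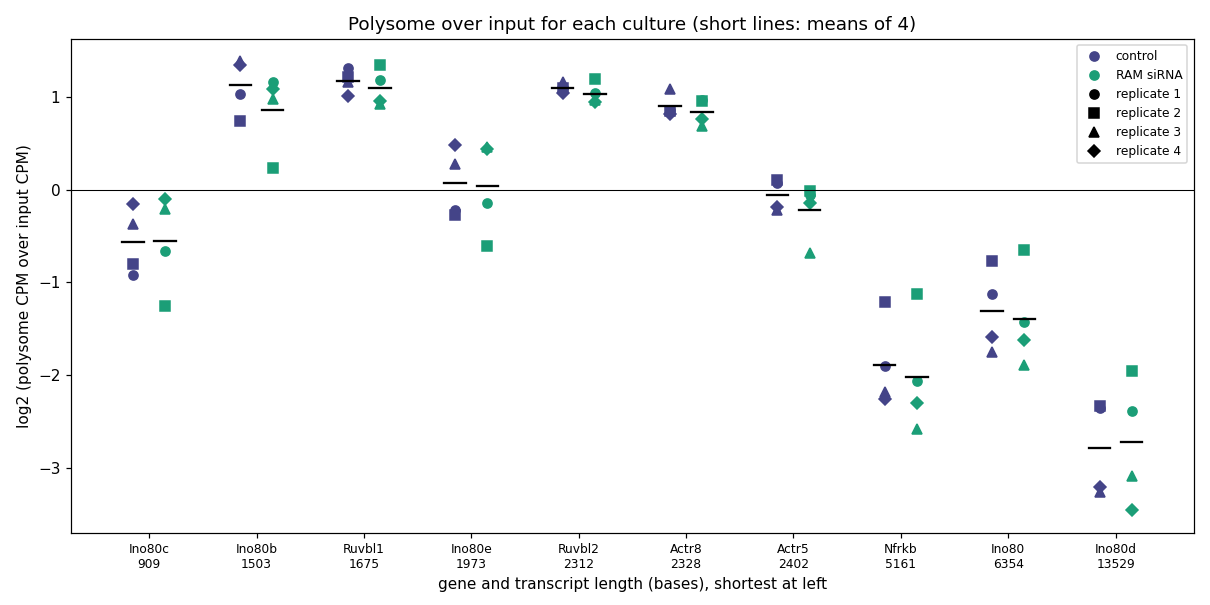
log2 of polysome CPM over input CPM (vertical axis) for each culture of control (blue) and RAM siRNA (green) cells, with a shape for each replicate number and a line at each mean, for the members in order of transcript length (horizontal axis). The 3 longest, Nfrkb, Ino80 and Ino80d, lie below 0 in all 8 cultures, as does Ino80c, the shortest, and Ino80b, Ruvbl1, Ruvbl2 and Actr8 lie above 0 in all 8.

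After RAM siRNA the split was found again with the same sign for the called members. Here 3 members were lower in polysomes (Ino80d -2.58 ± 0.32, Nfrkb -1.88 ± 0.30 and Ino80 -1.30 ± 0.26) and 4 were higher (Ruvbl1 1.11 ± 0.17, Ruvbl2 1.04 ± 0.17, Ino80b 0.92 ± 0.22 and Actr8 0.85 ± 0.17), where 25.9% and 27.3% of all genes were called. Ino80c was not called (-0.46 ± 0.26, adjusted p = 0.15), but was called without the RAM siRNA polysome library of replicate 4 (-0.703, adjusted p = 0.0217). With replicate numbers 1 and 2 alone, Ino80 (-0.962, adjusted p = 0.0584) and Ino80b (0.761, adjusted p = 0.0981) were not called.

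Whether the split itself changed was tested as the difference between both comparisons. No member was called, and 0 of 12805 genes were called by edgeR, with 0 members and 100 genes at an unadjusted p under 0.05, while DESeq2 called 1 gene that was no member. The estimates ran from -0.23 for Ino80b (95% interval -0.80 to 0.34) to 0.17 for Ino80d (-0.68 to 1.01). With the block within each fraction the interval of Ino80b was -0.60 to 0.10 and that of Ruvbl1 -0.33 to 0.18. Values are shares of each library, so a change in the total amount of polysomes cannot be read from them.

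The members low in polysomes were those with long transcripts. Ino80d had 13529 bases, 10185 of them in the 3′ untranslated region, which is longer than in 99.8% of 12125 genes. Ino80 had 6354 bases and Nfrkb 5161, while the other 7 members had between 909 for Ino80c and 2402 for Actr5. The rank correlation of length with the polysome over input difference was -0.69 over the 10 members and -0.39 over the 12125 genes, given as a description across genes, which are not independent replicates and share the same libraries. Of all genes with at least 5000 bases 61.7% were called lower in polysomes and 8.23% higher, and of those under 2500 bases 20.7% and 49.9%. Both limits lie between the lengths of Actr5 and Nfrkb, and these classes were not among the planned comparisons. Ino80c, with the shortest transcript of the list and a negative difference, did not follow this order, although lengths come from a single annotated transcript and the isoforms these cells use were not measured here.

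**Figure D4:**
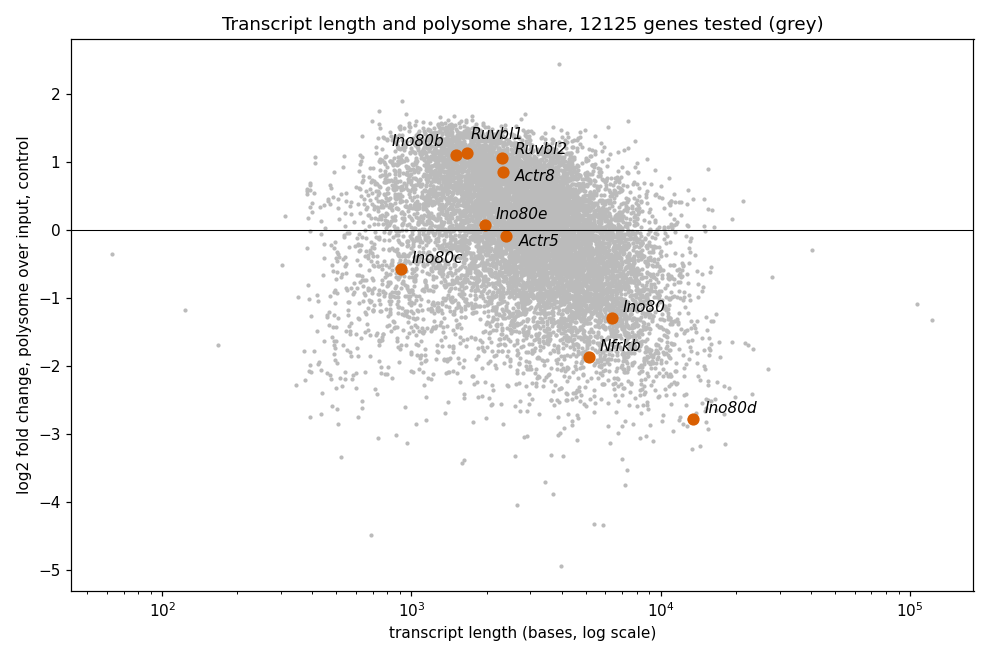
log2 fold change of polysomes over input in control cells (vertical axis) against transcript length in bases (horizontal log axis) for the 12125 tested genes with a coding transcript (grey) and the 10 members (orange). Ino80d, Ino80 and Nfrkb lie at the long, low end, and Ruvbl1, Ruvbl2, Ino80b and Actr8 at the short, high end.

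Within the polysome groups, the members also differed in how far their replicates spread. The log2 SD over 4 libraries had a median of 0.33 over the members in control polysomes, against 0.26 for all genes, and of 0.50 against 0.38 after RAM siRNA. In input these medians were 0.15 against 0.13 in control and 0.11 against 0.15 after RAM siRNA. For all genes 0.5 CPM was added before the log, which lowers the SD of weakly expressed genes. For the members it was not, so the medians are not the same measure. Actr8 was the steadiest member in control polysomes (0.07) and Nfrkb the least steady (0.47).

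The spread followed the replicate number. Ino80 lay 0.44 above its group mean on the log2 scale in control replicate 2 and 0.83 above in RAM siRNA replicate 2, and 0.40 and 0.50 below in replicate 3. Nfrkb lay 0.67 and 1.00 above in replicate 2, and Ino80d 0.38 and 0.89. The long mRNAs of the list were thus highest in replicate 2 of RAM siRNA, at 63.7 CPM for Ino80, 34.4 for Ino80d and 22.1 for Nfrkb.

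Ino80b, Ino80c and Ino80e showed the reverse, at 0.68, 0.75 and 0.65 below the group mean in RAM siRNA replicate 2 and 0.26, 0.60 and 0.57 above it in replicate 4. Over all genes the median deviation of those with at least 5000 bases was 0.49 in RAM siRNA replicate 2 and -0.37 in replicate 4, and of those under 2500 bases -0.40 and 0.27. Not every member under 2500 bases lay on that side, since Actr5, Ruvbl1, Actr8 and Ruvbl2 were 0.36, 0.30, 0.07 and 0.04 above their group means in RAM siRNA replicate 2. The part of this in the results in polysomes was not tested beyond the values given with the block and without that library.

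**Figure D5:**
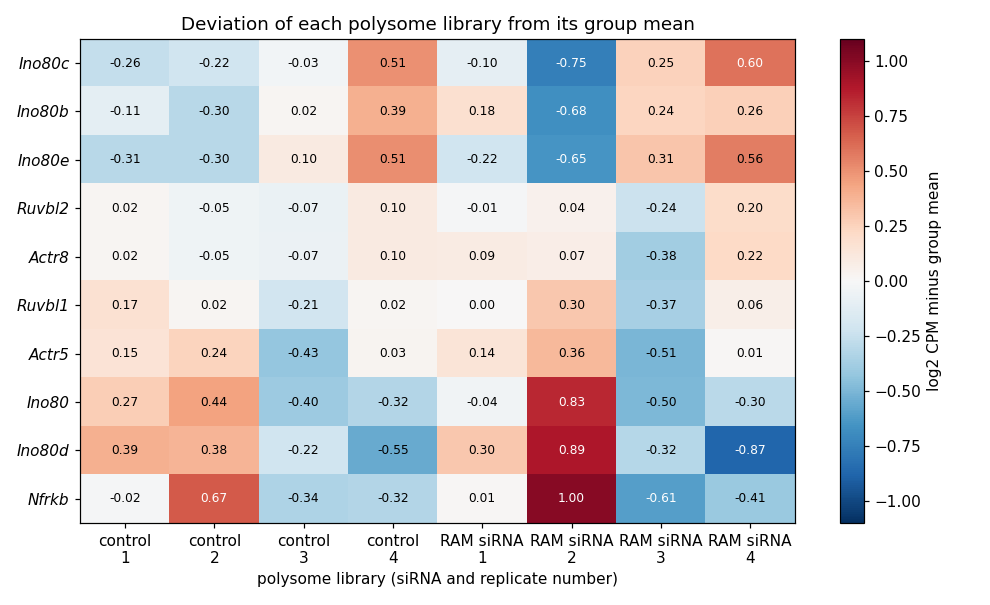
Deviation of log2 CPM from the group mean (colour and printed value) for the members (rows) in the 8 polysome libraries (columns). Ino80, Ino80d and Nfrkb are high in replicate 2 and low in replicates 3 and 4 with either siRNA, and Ino80c, Ino80b and Ino80e are lowest in RAM siRNA replicate 2 and highest in replicate 4 with either siRNA.

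The genes whose log2 CPM over the 16 libraries was most like that of Ino80, among 9140 genes whose mean reached 10 CPM, were Brpf1 (Pearson r = 0.995), Polq (0.995), Ercc6 (0.994), Ogt (0.993) and Kdm5a (0.993). For Ino80b they were Yju2 (0.986), Krt42 (0.979), Mrpl48 (0.978), Cops5 (0.977) and Gemin2 (0.976). The 16 points share the input and polysome difference, which sets most of these values, so they are given as a description.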

How the data were processed

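RNA-seq was made from 16 libraries of RNA depleted of ribosomal RNA with a kit that keeps the strand, 4 for each siRNA and fraction. The authors mapped reads to mm10 with STAR 2.5.1b and counted them per Ensembl gene with HTSeq, and they deposited raw counts, with no normalization or filter. The strand and overlap settings and the annotation release are not given in the sources used here. The table holds 0 columns of other samples.

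Gene IDs were matched to symbols and transcripts of GENCODE M21 (GRCm38, 46488 of the IDs had a symbol and 495 had none). Genes that reached 1 CPM in 10 or more of the 16 libraries were kept. Library sizes were scaled by TMM, and groups were compared without a block by quasi-likelihood fits (edgeR 4.0.16, R 4.3.3), with Benjamini-Hochberg adjustment over all genes tested and a threshold of 0.05, which defines "called". Comparisons within a fraction or an siRNA used their 8 libraries and the change of the split all 16. Intervals are 95% intervals from the SE and the total degrees of freedom of the fit, which are the residual plus the prior ones. CPM per kb used the union of exons. For ranking similar genes, for the correlation of deviations and for the SD over all genes a pseudocount of 0.5 CPM was added.

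Groups came from the labels. The study describes 4 independent occasions, and replicates of a number deviated together. The correlation of deviations from the group means over 9140 genes was 0.4 to 0.797 for control and RAM siRNA in input. In polysomes it was 0.625 to 0.944. Between input and polysomes it was 0.237 to 0.571 in control cells and 0.297 to 0.711 in RAM siRNA cells. Libraries of different numbers reached at most 0.196, 0.645, 0.206 and 0.276 in that order, so the ranges overlapped in polysomes. The numbers were taken to pair the libraries. How the study's own edgeR model treated the occasions is not stated in the sources used here. The main fit without a block is therefore a choice made here, not taken from the paper. It leaves out this pairing, and the block is counted among the alternatives. In input, 761 genes were called lower and 890 higher without the block, against 2433 and 2595 with it. No libraries of a group agreed within sampling noise. DESeq2 1.42.0, limma-voom (limma 3.58.1), RLE and library-size scaling, other filters, subsets of replicates and each library left out were also tried.

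The members, the lists and the named genes (all members, 6 other subunits, the partners past the threshold, overlapping genes and the 5 genes most like Ino80 and Ino80b) were chosen with earlier results of these data known.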

Additional observations from a re-analysis of the deposited data

Results flagged for a closer look

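Among 40 sets of 4 libraries (10 members in 4 groups), 2 had a library far from the other 3 by Dixon's test, for which chance flags about 1 in 20 groups. Ino80b in RAM siRNA polysomes was at 9.51 CPM in replicate 2, below 17.2, 17.9 and 18.3 CPM in the others. Actr5 in RAM siRNA input was at 16.1 CPM in replicate 2, above 13.9 to 14.2 CPM in the others.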

How the results depend on the processing

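Ino80b in input kept its direction under all 17 alternatives and its call under 16, with log2 fold changes from -0.726 to -0.503 and adjusted p from 4.01e-05 to 0.593, the highest from replicate numbers 3 and 4 alone. In polysomes it kept its direction under all 18 and was called under 2. The calls of polysomes against input in control cells held under all 17 alternatives for Ino80, Ino80b, Ino80d, Actr8, Ruvbl1, Ruvbl2 and Nfrkb, and Ino80c lost its call with replicate numbers 3 and 4 alone (-0.250, adjusted p = 0.334). Library-size scaling shifted the median of all genes in polysomes against input after RAM siRNA from 0.04 to -0.08.

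With the replicate block 5 members and 5028 genes were called in input and 1 member and 1875 genes in polysomes, where Ramac was at -2.585 and the uncalled values of Ino80d and Nfrkb turned to -0.008 and -0.006. The block within each fraction called 2 genes for the change of the split. The block changed no other call of a member, and for polysomes against input in control cells it added Yy1 and Znhit1 to the calls of the other lists. With the block and without the RAM siRNA polysome library of replicate 2, a setting chosen after seeing the data, 2 members and 4566 genes were called in polysomes, Ramac was at -2.289, and Ino80 (-0.071), Ino80d (-0.172), Ino80e (0.019) and Nfrkb (-0.116) changed sign uncalled, as did the change of the split of Ino80d (-0.169).

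DESeq2 called 300 genes in polysomes and 1 for the change of the split, with Ramac in polysomes at -2.553. Without a filter 39 genes were called in polysomes, with Ramac at -2.581 and Actr5 in polysomes against input at 0.053, and with a filter of 1 CPM in 4 libraries 18 genes. Library-size scaling turned Ino80d (-0.017) and Nfrkb (-0.029) in polysomes and Ino80e in polysomes against input (-0.012), and limma-voom Ino80d (-0.026) and Nfrkb (-0.025) in polysomes.

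Replicate numbers 1 and 2 alone called 3 members (Ino80b, Ino80c and Ruvbl1) and 2629 genes in input and 0 genes in polysomes, and turned Actr5 in polysomes (0.004) and in polysomes against input (0.032). Ino80e in polysomes against input became -0.301 in control cells (adjusted p = 0.0155) and -0.349 after RAM siRNA, where Ino80 and Ino80b lost their calls as given above and Ino80c gained one (-0.919, adjusted p = 0.0335). Replicate numbers 3 and 4 alone called 0 members and 0 genes in input and 0 genes in polysomes, and there Ramac in input, at -1.834, was not called either (adjusted p = 0.17). They turned Ruvbl2 (0.032) and Nfrkb (-0.033) in input, Ino80d (-0.202), Ino80e (0.020) and Nfrkb (-0.196) in polysomes, and the change of the split of Ino80d (-0.010). The causes were not tested.

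Leaving out each library in turn gave 1 to 3 members and 913 to 2506 genes called in input, the lowest without RAM siRNA replicate 1 and the highest without RAM siRNA replicate 4, when Ino80c and Ruvbl1 joined Ino80b. Without control replicate 1 or 2 or RAM siRNA replicate 2 there were 928, 1011 and 1068 genes, and Ino80c was also called without control replicate 3 (-0.333, adjusted p = 0.0199). In polysomes it gave 0 to 48 genes, the highest without RAM siRNA replicate 2. Uncalled values that changed sign ran from -0.001 to 0.129 for Actr5 and -0.127 to 0.030 for Ruvbl2 in input. In polysomes they ran from -0.242 to 0.254 for Ino80, -0.395 to 0.049 for Ino80c, -0.284 to 0.272 for Ino80d, -0.293 to 0.117 for Ino80e, -0.140 to 0.097 for Actr5, -0.123 to 0.011 for Ruvbl2 and -0.388 to 0.326 for Nfrkb. For polysomes against input they ran from -0.162 to 0.061 for Actr5 and -0.130 to 0.187 for Ino80e in control cells and -0.101 to 0.286 for Ino80e after RAM siRNA, and for the change of the split of Ino80d from -0.202 to 0.389. By CPM without length Ino80d, not Ruvbl2, was the highest member in control input, and Ino80b, not Actr8, the lowest. Per kb of a single coding transcript Ruvbl1 was at rank 4, after Ruvbl2, Ino80c and Ino80e, and Actr8 at rank 6.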
